A study of Mus musculus with 9 samples.

Results

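Type I interferon-stimulated genes were followed in RNA from mouse MB49 tumours of animals given Lipo-TriTE, Lipo-BiTE or PBS. A list of 35 gene names was matched to the gene names of the deposited count table. Of these, 32 had a row among 44806 rows, and all 32 stood among the 16596 genes that passed the filter on low counts. Ifit3, Oas1a and Sp100 had no row under those names. Each treatment had 3 libraries. MB49 is a mouse line derived from bladder cancer, and the labels give it overexpression of HER2, a receptor tyrosine kinase, in every group, PBS included. BiTE usually stands for a protein built from antibody fragments that bridges T cells and tumour cells. The labels give neither dose nor time. The sample labels and extraction protocol describe whole tumour tissue, whereas the design text speaks of sorted CD3+ T cells. Keratin and collagen transcripts were present beside T cell transcripts in all 9 libraries. Nothing in the labels ties each library to its own animal, so the p-values reflect sample-to-sample spread that may be technical. Libraries held 13152783 to 20273548 counts, and 3 counts in a library equalled 0.146 to 0.237 CPM, the read count scaled to the library total.

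Type I interferons are secreted proteins made by cells that sense foreign or misplaced nucleic acid. They bind the receptor pair Ifnar1 and Ifnar2, and the kinases Jak1 and Tyk2 then activate factors such as Stat2, which joins Irf9 to bind the interferon-stimulated response element in promoters. The genes so induced encode proteins that bind viral RNA, degrade it, trap viral particles or modify other proteins, and many of them also respond to interferon gamma. In tumours these genes are known from malignant cells and from infiltrating leukocytes alike, and fewer cells of a type and less RNA per cell cannot be told apart in such a mixture.

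The interferon-stimulated response element was searched for as GAAA, any 2 bases and GAAA on both strands, in 300 bases around each annotated start (250 before and 50 after) from RefSeq on GRCm38.p6. Of the 35 genes 25 had an entry, with 30 promoters among them. The motif was present in 13 of these 30 promoters (43.3%), against 3.44% of all 32851 promoters in the table. The gamma-activated site, searched for as TTCNNNGAA, was present in 23.3% of the 30 promoters and 8.3% of all. The bases before the start are shown for genes that differ in motif and in response, with every letter of a match in either orientation in capitals and all sequences read 5′ to 3′ along the gene.
Isg15, chr4:156200819-156201068, minus strand: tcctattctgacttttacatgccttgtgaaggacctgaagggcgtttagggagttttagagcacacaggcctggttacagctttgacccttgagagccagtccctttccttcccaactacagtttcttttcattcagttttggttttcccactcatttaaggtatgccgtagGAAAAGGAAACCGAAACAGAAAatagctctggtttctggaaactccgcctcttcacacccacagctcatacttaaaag
Ifit1, chr19:34640639-34640888, plus strand: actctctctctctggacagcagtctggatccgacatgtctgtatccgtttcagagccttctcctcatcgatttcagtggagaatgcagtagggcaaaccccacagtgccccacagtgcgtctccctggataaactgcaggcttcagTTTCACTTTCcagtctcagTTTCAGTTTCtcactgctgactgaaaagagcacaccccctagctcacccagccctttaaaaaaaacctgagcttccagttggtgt
Rsad2, chr12:26456453-26456702, minus strand: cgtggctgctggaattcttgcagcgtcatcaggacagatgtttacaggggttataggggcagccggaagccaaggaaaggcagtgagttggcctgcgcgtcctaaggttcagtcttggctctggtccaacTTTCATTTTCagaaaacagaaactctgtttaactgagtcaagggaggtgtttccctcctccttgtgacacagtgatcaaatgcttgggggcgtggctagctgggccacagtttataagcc
Bst2, chr8:71537473-71537722, minus strand: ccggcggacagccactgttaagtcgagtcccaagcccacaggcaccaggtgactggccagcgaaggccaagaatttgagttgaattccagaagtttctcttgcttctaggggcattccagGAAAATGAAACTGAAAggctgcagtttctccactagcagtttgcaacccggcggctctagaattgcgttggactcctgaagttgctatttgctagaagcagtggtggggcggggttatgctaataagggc
Oasl2, chr5:114896684-114896933, plus strand: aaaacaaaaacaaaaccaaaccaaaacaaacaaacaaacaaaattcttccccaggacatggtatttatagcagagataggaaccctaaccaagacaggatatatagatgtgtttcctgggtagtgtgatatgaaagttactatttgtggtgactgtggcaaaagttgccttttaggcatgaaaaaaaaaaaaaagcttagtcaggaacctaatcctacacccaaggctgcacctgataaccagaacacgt
In Isg15 3 overlapping matches began 78, 72 and 66 bases before the start. In Ifit1 matches began 104 and 85 bases before it, in Bst2 130 and 124 bases before it with an overlap, and in Rsad2 a lone match began 120 bases before it. The Oasl2 window held no match. A match is a description of these letters, not a site. Of the 22 genes with both an entry and a row, 3 of 9 called higher in Lipo-TriTE against PBS held the element, as did 7 of 13 not called higher. The counts were the same in Lipo-BiTE against PBS, 3 of 9 and 7 of 13. Rsad2 enters these counts with a chromosome 12 promoter, whereas its tested row lies on chromosome 10 of the deposited models.

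In Lipo-TriTE tumours 15 of the 32 genes were higher than in PBS tumours, 1 was lower and 16 did not pass the test by edgeR's quasi-likelihood test, with calls at an adjusted p under 0.05 (Benjamini-Hochberg, over all tested genes). Over all tested genes 33.6% were called in that comparison, 18.9% higher and 14.8% lower. In Lipo-BiTE tumours 14 genes were higher than in PBS tumours, 1 was lower and 17 did not pass, where 17% of all tested genes were called, 13.8% higher and 3.22% lower. The median log2 fold change of the 32 genes was 0.89 in Lipo-TriTE and 0.99 in Lipo-BiTE tumours against PBS, beside medians of 0.00 and −0.02 over all tested genes. Without Lipo-TriTE 1 the Lipo-TriTE median was 0.49. All 3 libraries of a treated group lay above all 3 PBS libraries for 21 genes in Lipo-TriTE and 15 in Lipo-BiTE tumours, where 26% and 22.7% of all tested genes did so. They lay below PBS for 2 genes in Lipo-TriTE and 3 in Lipo-BiTE tumours, where 23.4% and 19.4% of all tested genes did so. Both comparisons use the same PBS libraries.

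**Figure D1:**
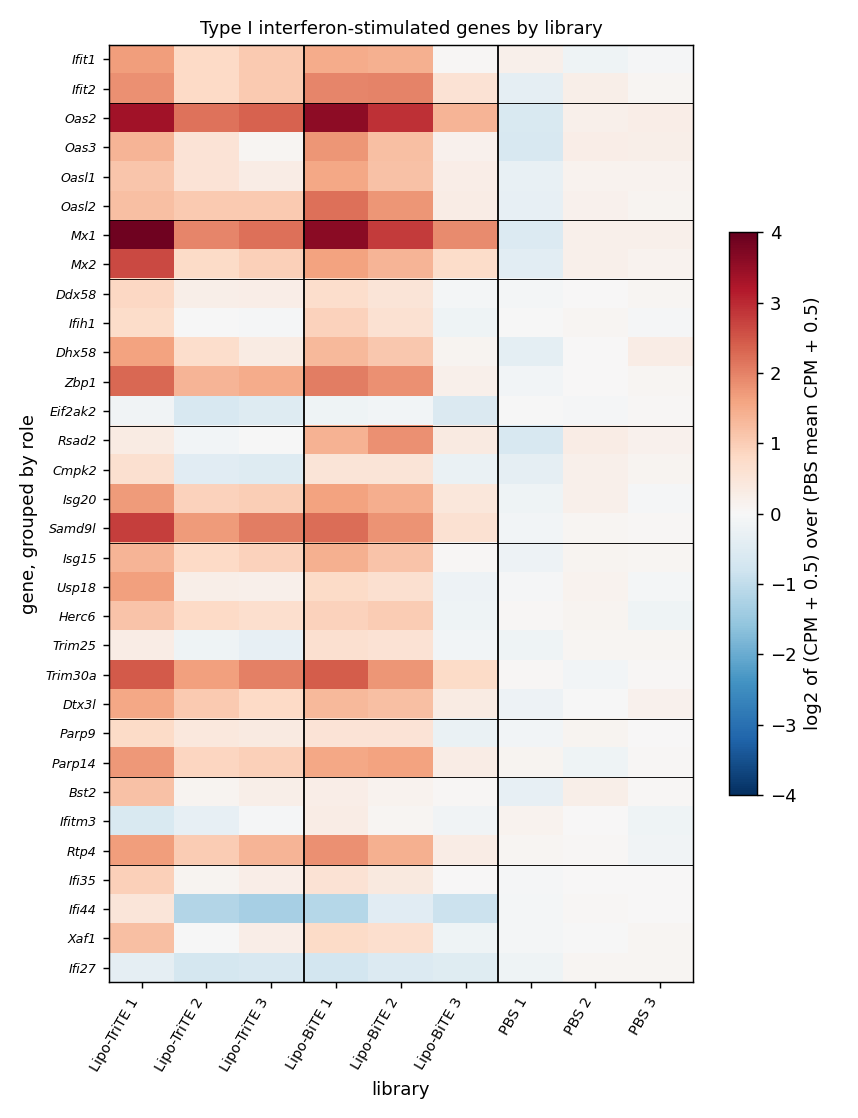
Heat map of 32 type I interferon-stimulated genes (rows, by role) in 9 libraries (columns), as log2 of CPM + 0.5 over the PBS mean of CPM + 0.5. Mx1, Oas2, Samd9l and Trim30a are red in all 6 libraries of treated tumours, Ifi27 is blue in all 6, and Lipo-BiTE 3 is paler than the other libraries of its group.

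The dynamin-like GTPases Mx1 and Mx2, where functional, inhibit RNA viruses, in the mouse Mx1 in the nucleus and Mx2 in the cytoplasm. The values here are of RNA, and whether these tumours make working Mx proteins was not measured. Mx1 (MGP_C57BL6NJ_G0023507) had the largest change of the 32 genes in both comparisons. It stood at 143, 37.4 and 44.4 CPM in Lipo-TriTE tumours, 119, 66.3 and 35.6 CPM in Lipo-BiTE tumours and 6.09, 10.7 and 10.8 CPM in PBS tumours. All 6 treated libraries lay above all PBS libraries, and Lipo-TriTE 1 and Lipo-BiTE 1 were the highest. Mx1 rose 8.12-fold in Lipo-TriTE tumours (log2 3.02 ± 0.58 SE, adjusted p = 0.00325) and 7.96-fold in Lipo-BiTE tumours (log2 2.99 ± 0.58, adjusted p = 0.00605). Without Lipo-TriTE 1 the Lipo-TriTE value was 4.48-fold and still called. Mx2 rose 3.57-fold in Lipo-TriTE tumours (adjusted p = 0.0176), a call lost without PBS 1 or without Lipo-TriTE 1 (1.95-fold), and its 2.60-fold difference in Lipo-BiTE tumours did not pass (adjusted p = 0.0882).

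The 2′-5′ oligoadenylate synthetases sense double-stranded RNA and make the messenger that activates the ribonuclease RNase L, while the related Oasl1 lacks that activity. Of the 4 measured genes 2 rose in Lipo-TriTE and 3 in Lipo-BiTE tumours. Oas2 (MGP_C57BL6NJ_G0030443) stood at 179.6, 78.9 and 89.8 CPM in Lipo-TriTE tumours, 209, 134 and 44.9 CPM in Lipo-BiTE tumours and 11.1, 19.9 and 20.6 CPM in PBS tumours. Every treated library exceeded every PBS library. Oas2 rose 6.74-fold in Lipo-TriTE (log2 2.75 ± 0.53, adjusted p = 0.00311) and 7.49-fold in Lipo-BiTE tumours (log2 2.91 ± 0.53, adjusted p = 0.00415). Oasl2, the most abundant of the 4 in CPM, stood at 265, 238 and 241 CPM in Lipo-TriTE tumours, 537, 390.1 and 143 CPM in Lipo-BiTE tumours and 91.2, 129 and 126 CPM in PBS tumours. Its Lipo-TriTE libraries were close to each other and clear of PBS, whereas Lipo-BiTE 3 lay just above the highest PBS library. Oasl2 rose 2.15-fold in Lipo-TriTE (adjusted p = 0.0415) and 3.10-fold in Lipo-BiTE tumours (adjusted p = 0.0145). The Lipo-TriTE call of Oasl2 was lost without any of the 6 libraries compared, with adjusted p up to 0.138. Oasl1 rose 2.15-fold in Lipo-BiTE tumours (adjusted p = 0.0365), and its 1.61-fold difference in Lipo-TriTE tumours did not pass. Oas3 passed in neither, at 1.69-fold in Lipo-TriTE and 2.29-fold in Lipo-BiTE tumours.

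Samd9l and Trim30a followed Mx1 and Oas2 in size of change. Samd9l, a cytoplasmic protein that restrains poxviruses, stood at 286, 139 and 177 CPM in Lipo-TriTE tumours, 201, 147 and 63.8 CPM in Lipo-BiTE tumours and 39.2, 43.9 and 43.0 CPM in PBS tumours. The PBS libraries were close together, and no treated library reached down to them. Samd9l rose 4.77-fold in Lipo-TriTE (log2 2.25 ± 0.38, adjusted p = 0.00176) and 3.27-fold in Lipo-BiTE tumours (log2 1.71 ± 0.38, adjusted p = 0.0119). Trim30a, a mouse tripartite-motif protein that dampens inflammatory signalling, stood at 328, 189 and 242 CPM in Lipo-TriTE tumours, 322, 205 and 102 CPM in Lipo-BiTE tumours and 62.4, 56.1 and 61.4 CPM in PBS tumours. Groups of treated and PBS libraries did not overlap here either, and Lipo-BiTE 3 was the lowest treated library. Trim30a rose 4.22-fold in Lipo-TriTE (log2 2.08 ± 0.36, adjusted p = 0.00178) and 3.50-fold in Lipo-BiTE tumours (log2 1.81 ± 0.35, adjusted p = 0.00605). Trim30a has close paralogs beside it in the genome, and how reads shared by such copies were counted is not given in the sources used here, which also holds for Ifit1, Mx1, Mx2, Oas2, Oasl1 and Oasl2.

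**Figure D2:**
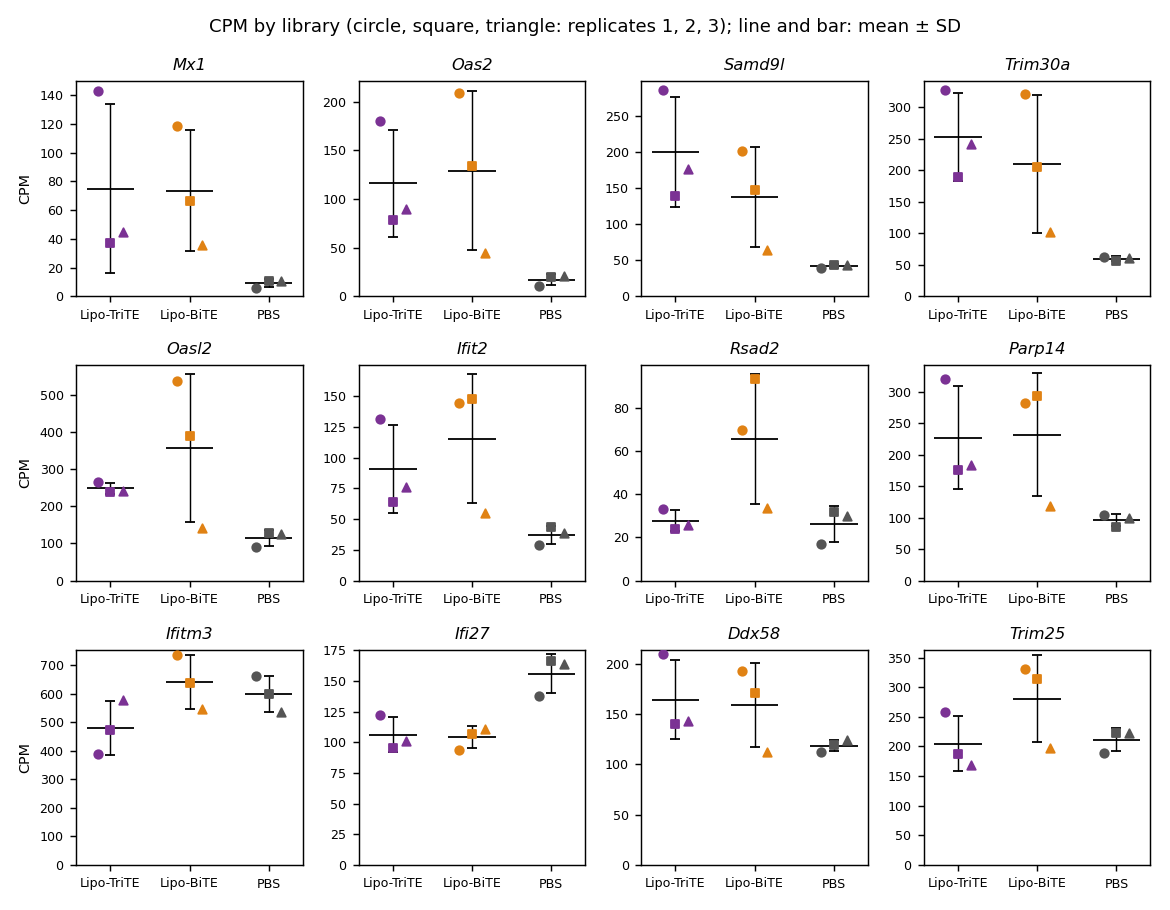
CPM of 12 genes in each library (circles, squares and triangles for replicates 1, 2 and 3), with the group mean as a line and the SD as a bar, n = 3 each. Mx1, Oas2, Samd9l and Trim30a lie higher in all treated libraries than in any PBS library, Ifi27 lies lower, and Ddx58 and Trim25 lie close to PBS in several treated libraries.

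The IFIT proteins bind RNA and block the translation of viral transcripts. Ifit2 stood at 131, 64.1 and 75.9 CPM in Lipo-TriTE tumours, 144, 147 and 54.8 CPM in Lipo-BiTE tumours and 28.7, 43.3 and 38.6 CPM in PBS tumours. Treated libraries all exceeded PBS libraries, with Lipo-BiTE 3 nearest to them. Ifit2 rose 2.45-fold in Lipo-TriTE (adjusted p = 0.0233) and 3.13-fold in Lipo-BiTE tumours (adjusted p = 0.0148). Ifit1 rose 2.36-fold in Lipo-TriTE tumours (adjusted p = 0.0214), and its 2.18-fold difference in Lipo-BiTE tumours missed the threshold (adjusted p = 0.0532). With Lipo-BiTE 3 left out Ifit1 passed there, at 2.72-fold.

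Of 5 measured sensors of nucleic acid only Zbp1, a sensor of left-handed nucleic acid that triggers cell death, rose, by 3.46-fold in Lipo-TriTE (adjusted p = 0.00801) and 2.97-fold in Lipo-BiTE tumours (adjusted p = 0.0259). Ddx58, which encodes the RNA helicase RIG-I, stood at 209, 140.3 and 143 CPM in Lipo-TriTE tumours, 193, 171 and 112 CPM in Lipo-BiTE tumours and 113, 119 and 124 CPM in PBS tumours. Its Lipo-TriTE libraries lay above PBS and Lipo-BiTE 3 lay just below the lowest PBS library. Neither the 1.39-fold difference in Lipo-TriTE (adjusted p = 0.112) nor the 1.34-fold difference in Lipo-BiTE tumours (adjusted p = 0.196) passed. Ifih1, which encodes the long-RNA sensor MDA5, differed by 1.20-fold in Lipo-TriTE and 1.44-fold in Lipo-BiTE tumours without passing. Dhx58, which encodes their regulator LGP2, differed by 2.00-fold in Lipo-TriTE and 1.89-fold in Lipo-BiTE tumours, also without passing. Eif2ak2, the RNA-activated kinase that halts translation, had lower values than PBS in all 6 treated libraries, at log2 −0.42 ± 0.17 in Lipo-TriTE (adjusted p = 0.0821) and −0.27 ± 0.17 in Lipo-BiTE tumours (adjusted p = 0.285), and did not pass.

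Isg15, a ubiquitin-like protein that is attached to other proteins, averaged 99.7 ± 21.0 CPM in Lipo-TriTE, 95.0 ± 40.5 in Lipo-BiTE and 47.8 ± 5.76 in PBS tumours (SD, n = 3 each). It rose 2.08-fold in Lipo-TriTE (adjusted p = 0.0204) and 1.98-fold in Lipo-BiTE tumours (adjusted p = 0.0464), where Lipo-BiTE 3 lay within the PBS range. Herc6, the mouse ligase that attaches Isg15, rose 1.87-fold in Lipo-TriTE tumours (adjusted p = 0.0277), and its 1.61-fold difference in Lipo-BiTE tumours did not pass. Usp18, the protease that removes Isg15 and restrains the interferon receptor, differed by 1.83-fold in Lipo-TriTE (adjusted p = 0.108) and 1.38-fold in Lipo-BiTE tumours (adjusted p = 0.435) without passing. Lipo-TriTE 1 stood at 126.5 CPM of Usp18, beside 46.7 and 46.1 CPM in Lipo-TriTE 2 and 3, and without it the Lipo-TriTE value was 1.17-fold. The ubiquitin ligase Dtx3l rose 2.25-fold in Lipo-TriTE (adjusted p = 0.00645) and 2.00-fold in Lipo-BiTE tumours (adjusted p = 0.025). Trim25, the ligase that acts on RIG-I and the highest of this role in CPM, stood at 258, 188 and 169 CPM in Lipo-TriTE tumours, 331, 314 and 197 CPM in Lipo-BiTE tumours and 189, 223 and 223 CPM in PBS tumours. The groups overlapped, and neither difference passed, at log2 −0.05 ± 0.22 in Lipo-TriTE and 0.41 ± 0.22 in Lipo-BiTE tumours.

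Among the ADP-ribosyltransferase family Parp14, which modifies proteins in cytokine signalling, stood at 321, 176 and 184 CPM in Lipo-TriTE tumours, 283, 294 and 119 CPM in Lipo-BiTE tumours and 103, 84.9 and 98.9 CPM in PBS tumours. No treated library overlapped with PBS, although Lipo-BiTE 3 came close. Parp14 rose 2.37-fold in Lipo-TriTE (adjusted p = 0.0162) and 2.42-fold in Lipo-BiTE tumours (adjusted p = 0.0261). Parp9, the partner of Dtx3l, differed by 1.44-fold in Lipo-TriTE and 1.25-fold in Lipo-BiTE tumours and did not pass. The models of Parp9 and Dtx3l overlap by 140 bases on opposite strands, and whether the counting used strand is not given in the sources used here.

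The membrane proteins differed among themselves. Rtp4, a chaperone of membrane receptors, rose 2.63-fold in Lipo-TriTE (adjusted p = 0.00892) and 2.52-fold in Lipo-BiTE tumours (adjusted p = 0.0203). Ifitm3, which blocks fusion of viruses in endosomes, stood at 389.9, 475 and 579 CPM in Lipo-TriTE tumours, 738, 639 and 548 CPM in Lipo-BiTE tumours and 662, 600.5 and 538 CPM in PBS tumours. The groups overlapped in every pair, and the differences from PBS did not pass, at log2 −0.32 ± 0.18 in Lipo-TriTE (adjusted p = 0.191) and 0.10 ± 0.18 in Lipo-BiTE tumours (adjusted p = 0.746). The sign in Lipo-BiTE tumours turned without TMM scaling (log2 −0.05). Lipo-TriTE 1, the highest library of its group for most genes of the list, was the lowest of its group for Ifitm3. Bst2, the tether that holds budding virus at the cell surface, averaged 161 ± 68.5 CPM in Lipo-TriTE, 119 ± 8.88 in Lipo-BiTE and 107 ± 20.5 in PBS tumours (SD, n = 3 each). Bst2, whose promoter window holds 2 overlapping matches of the motif, did not pass at 1.5-fold in Lipo-TriTE (adjusted p = 0.103) and 1.12-fold in Lipo-BiTE tumours (adjusted p = 0.706).

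Isg20, an exonuclease that degrades RNA, rose 2.39-fold in Lipo-TriTE (adjusted p = 0.0103) and 2.41-fold in Lipo-BiTE tumours (adjusted p = 0.0181). Cmpk2, a mitochondrial nucleotide kinase, had log2 fold changes of −0.01 ± 0.32 in Lipo-TriTE and 0.30 ± 0.32 in Lipo-BiTE tumours and did not pass. Ifi27, a small membrane protein of mitochondria, was the only gene of the list that fell. It stood at 122, 95.1 and 101 CPM in Lipo-TriTE tumours, 94.0, 107 and 111 CPM in Lipo-BiTE tumours and 138, 166 and 164 CPM in PBS tumours. All treated libraries lay below all PBS libraries. The log2 fold change was −0.55 ± 0.15 in Lipo-TriTE (adjusted p = 0.0134) and −0.58 ± 0.15 in Lipo-BiTE tumours (adjusted p = 0.0193). Leaving out a library ended the Ifi27 call in 3 of 6 cases in Lipo-TriTE (PBS 2, PBS 3 or Lipo-TriTE 2) and in 4 of 6 in Lipo-BiTE tumours (PBS 2, PBS 3, Lipo-BiTE 1 or Lipo-BiTE 2). Ifi35, Xaf1 and Ifi44 did not pass. Ifi44 stood at 0.75-fold in Lipo-TriTE and 0.57-fold in Lipo-BiTE tumours, and without Lipo-TriTE 1 it passed as lower in Lipo-TriTE tumours, at 0.42-fold (adjusted p = 0.00293).

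**Figure D3:**
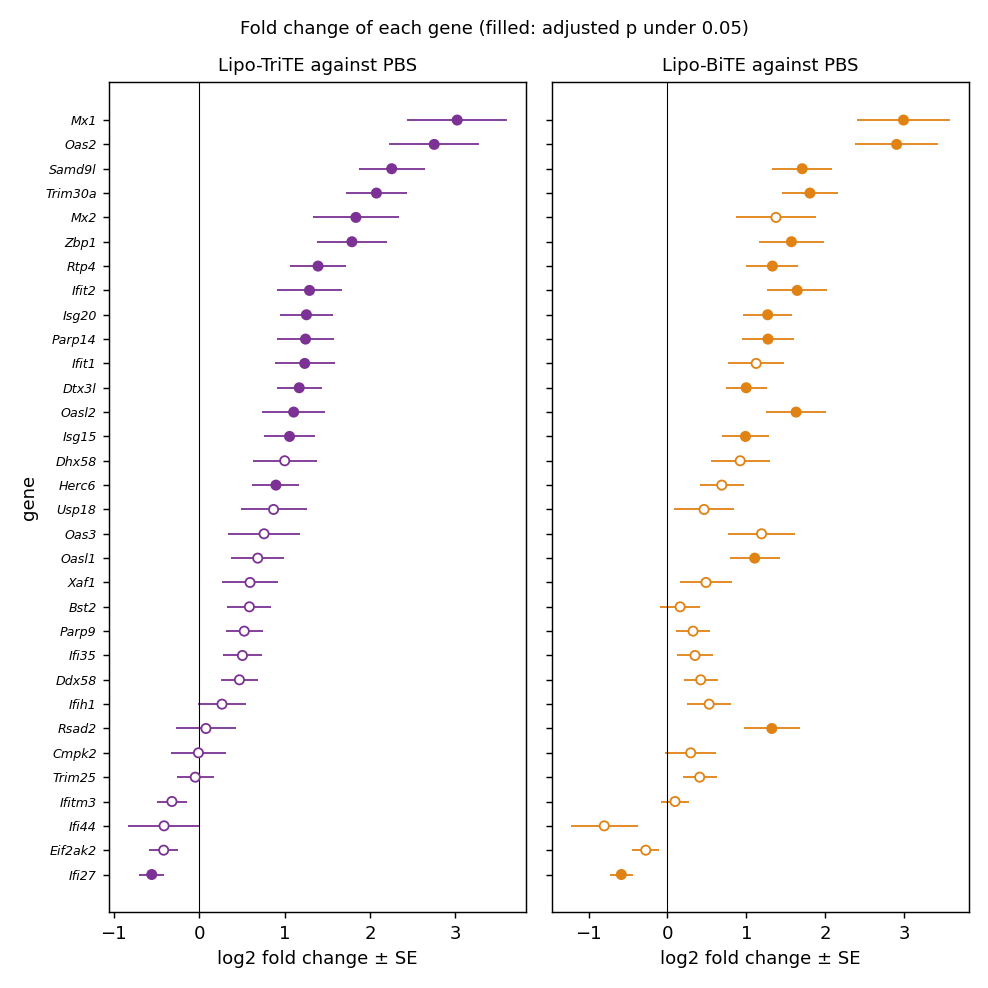
Log2 fold change with its SE for the 32 genes in Lipo-TriTE against PBS (left) and Lipo-BiTE against PBS (right), ordered by the left panel, filled where the adjusted p was under 0.05. Mx1 and Oas2 lie near 3 in both panels, Ifi27 lies below 0 in both, and Rsad2 is filled in the Lipo-BiTE panel alone, at 1.32 against 0.08.

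None of the 32 genes passed the test between Lipo-TriTE and Lipo-BiTE tumours, where 10.1% of all tested genes were called, 4.88% higher and 5.21% lower. At an unadjusted p under 0.05 there were 2, Ifitm3 and Rsad2, and DESeq2 called 1, Rsad2, lower. The median log2 fold change of the 32 genes was 0.06, beside −0.01 over all tested genes, with a range from −1.24 to 0.55. The sign of that median turned with single libraries: it was −0.28 without Lipo-TriTE 1 and −0.20 without Lipo-BiTE 3, and reached 0.26 without Lipo-BiTE 1. A missed threshold does not show equal levels: Samd9l, at the upper end, had an SE of 0.37, and Mx1 one of 0.53. Lipo-TriTE libraries lay wholly below Lipo-BiTE libraries for 1 gene, where 14.4% of all tested genes did so, and wholly above them for 0, where 16.1% did so.

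That gene was Rsad2, described in full after its values were seen. It encodes viperin, a radical-SAM enzyme that makes a chain-terminating nucleotide. Rsad2 stood at 33.2, 24.1 and 25.9 CPM in Lipo-TriTE tumours, 69.7, 93.6 and 33.8 CPM in Lipo-BiTE tumours and 16.8, 32.0 and 29.9 CPM in PBS tumours. Its Lipo-TriTE libraries overlapped with PBS, and Lipo-BiTE 3 stood barely above both. Rsad2 rose 2.5-fold in Lipo-BiTE tumours against PBS (adjusted p = 0.0279) and did not pass in Lipo-TriTE tumours (1.06-fold, adjusted p = 0.883). The difference between the treatments was log2 −1.24 ± 0.35, with an adjusted p of 0.0504 in edgeR's test and 0.00735 in DESeq2. The row named Rsad2 lies on chromosome 10 of the deposited C57BL/6NJ gene models, and an unnamed locus on chromosome 12 is described in the table as the same protein and held 69.6% to 78.9% of their summed counts. That locus stood at 104, 86.1 and 96.7 CPM in Lipo-TriTE tumours, 191, 214 and 87.5 CPM in Lipo-BiTE tumours and 58.8, 81.0 and 79.6 CPM in PBS tumours. It rose 2.24-fold in Lipo-BiTE (adjusted p = 0.0186), differed by 1.31-fold in Lipo-TriTE tumours (adjusted p = 0.323), and by log2 −0.78 ± 0.28 between the treatments (adjusted p = 0.107).

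The other names without a row were met in the same way, through entries that the table describes as those proteins and that were chosen after seeing the data. An entry described as the nuclear autoantigen Sp100 (MGP_C57BL6NJ_G0016625) stood at 431, 246 and 280.4 CPM in Lipo-TriTE tumours, 269.7, 159 and 98.5 CPM in Lipo-BiTE tumours and 50.5, 49.2 and 54.2 CPM in PBS tumours. All treated libraries lay above PBS, and the entry rose 6.22-fold in Lipo-TriTE (adjusted p = 0.000384) and 3.42-fold in Lipo-BiTE tumours (adjusted p = 0.00475). The larger of the loci described as Oas1a rose 2.87-fold in Lipo-TriTE (adjusted p = 0.0064) and 3.64-fold in Lipo-BiTE tumours (adjusted p = 0.00401). A locus described as Ifit3 rose 3.28-fold in Lipo-TriTE (adjusted p = 0.033) and 3.45-fold in Lipo-BiTE tumours (adjusted p = 0.0483). None of these entries is counted among the 32 genes.

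In each treated group 1 library stood at the edge of the group for nearly the whole list. Lipo-TriTE 1 was the highest of its group for 31 of 32 genes, where it was the highest for 36.8% of all tested genes. Lipo-BiTE 3 was the lowest of its group for 30 of 32, where it was the lowest for 38.8% of all tested genes. The other libraries kept no such order: the lowest of the Lipo-TriTE group was Lipo-TriTE 2 for 20 genes and Lipo-TriTE 3 for 11, and the highest of the Lipo-BiTE group was Lipo-BiTE 1 for 23 and Lipo-BiTE 2 for 8. The median coefficient of variation of the 32 genes was 33.0% in Lipo-TriTE, 38.1% in Lipo-BiTE and 10.5% in PBS tumours, beside 21.6%, 20.5% and 18.4% over all tested genes. PBS 2 and PBS 3 were the most alike pair within a group, with a chi-square per degree of freedom of 4.81 between their counts. For the other pairs within groups it ran from 22.6 to 89.7. The labels do not say whether PBS 2 and PBS 3 are separate animals, so the PBS spread may be too small. Counts of calls moved with single libraries. Without Lipo-BiTE 3 the count in Lipo-BiTE against PBS was 23, and without any other of the 6 libraries it was between 4 and 8. Over all tested genes 20.2% were called without Lipo-BiTE 3 and 8.59% to 10.5% without any other, beside 17% with all libraries. Without Lipo-TriTE 1 there were 8 higher and 3 lower genes in Lipo-TriTE against PBS. There 25.5% of all tested genes were called, beside 33.6% with all libraries. Oas2, Mx1 and Trim30a were called in Lipo-BiTE tumours whichever library was left out. In Lipo-TriTE tumours 8 genes were, namely Oas2, Mx1, Zbp1, Isg20, Samd9l, Trim30a, Dtx3l and Rtp4. Every other call of the 32 genes against PBS was lost when at least 1 of the 6 libraries compared was left out. In Lipo-BiTE tumours the calls of Oasl1, Zbp1, Isg15, Parp14 and Rtp4 were lost in 5 of 6 such fits. Those of Rsad2, Isg20 and Dtx3l were lost there in 4 of 6. In Lipo-TriTE tumours the call of Herc6 was lost in 4 of 6.

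Markers of leukocytes moved with the treatments too. Ptprc, the leukocyte common antigen CD45, stood at 1755, 1316 and 1298 CPM in Lipo-TriTE tumours, 1506, 909.7 and 409.98 CPM in Lipo-BiTE tumours and 72.4, 95.1 and 98.1 CPM in PBS tumours. Lipo-TriTE 1 was the highest and Lipo-BiTE 3 the lowest of its group, as for the interferon-stimulated genes. Of 8 T cell markers 8 rose in both comparisons, as did 8 of 8 macrophage markers and 5 of 5 neutrophil markers. No marker of these lists was at 0. Over all tested genes 18.9% were called higher in Lipo-TriTE and 13.8% in Lipo-BiTE against PBS. The summed T cell markers ran from 829 to 1437 CPM in Lipo-TriTE, 189 to 357 in Lipo-BiTE and 42.9 to 49.7 in PBS tumours. The summed macrophage markers ran from 699 to 1151 CPM in Lipo-TriTE, 926 to 2915 in Lipo-BiTE and 152 to 179 in PBS tumours, and the neutrophil markers from 1371 to 4191 in Lipo-TriTE, 1213 to 6284 in Lipo-BiTE and 212 to 364 in PBS tumours. Lipo-TriTE 1 was the lowest of its group for both of these sums, against the order of Ptprc: its macrophage markers summed to 699 CPM, beside 1151 in Lipo-TriTE 2 and 1113 in Lipo-TriTE 3, and its neutrophil markers to 1371 CPM, beside 2661 and 4191. B cell markers ran from 321 to 892 CPM in Lipo-TriTE, 9.16 to 16.3 in Lipo-BiTE and 5.88 to 10.1 in PBS tumours. With the order of Ptprc, Lipo-TriTE 1 was the highest of its group for the T cell sum (1437 CPM, beside 829 and 893). It was also the highest for the B cell sum (892 CPM, beside 323 and 321). Lipo-BiTE 3 was the lowest of its group for the T cell, macrophage, neutrophil and B cell sums, at 189, 926, 1213 and 9.16 CPM. The 4 measured epithelial markers summed to 326 to 588 CPM in Lipo-TriTE, 517 to 739.6 in Lipo-BiTE and 842 to 904 in PBS tumours. They did not move as 1: against PBS 1 rose and 2 fell in Lipo-TriTE, and 1 rose and 0 fell in Lipo-BiTE tumours. The fibroblast markers summed to 883 to 1390.4 CPM in Lipo-TriTE, 1303 to 2216 in Lipo-BiTE and 1979.7 to 3019.6 in PBS tumours. Of 5 fibroblast markers 0 rose and 3 fell in both comparisons. Over all tested genes 14.8% were called lower in Lipo-TriTE and 3.22% in Lipo-BiTE against PBS. The part of these changes in the cell mixture in the levels of the interferon-stimulated genes was not tested.

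The interferon-stimulated genes changed by less than Ptprc. Ptprc itself rose 16.4-fold in Lipo-TriTE and 10.6-fold in Lipo-BiTE tumours against PBS, and was 1.55-fold higher between the treatments without passing. A gene with no change against PBS would therefore also have a lower ratio to Ptprc. The share of all tested genes with lower ratios was not computed, so the counts below are not particular to this list. The median over the 32 genes of the ratio of their CPM to that of Ptprc was 0.0701, 0.0519 and 0.0604 in Lipo-TriTE libraries, 0.0774, 0.112 and 0.128 in Lipo-BiTE libraries and 0.556, 0.462 and 0.448 in PBS libraries. This ratio was lower in all Lipo-TriTE than in all PBS libraries for 32 of 32 genes, with a median fold of 0.107, and lower in all Lipo-BiTE than in all PBS libraries for 31 of 32, with a median fold of 0.204. Between the treatments the median fold was 0.590, and 18 of 32 ratios were lower in all Lipo-TriTE than in all Lipo-BiTE libraries. With the geometric mean of T cell and macrophage markers in place of Ptprc that count was 10. Mx1 kept the highest ratio against PBS, at 0.470-fold in Lipo-TriTE and 0.778-fold in Lipo-BiTE tumours. These ratios are descriptions, and without Ifitm3 the summed level of the list was 4585, 2681 and 2794 CPM in Lipo-TriTE, 4546, 3851 and 1991 in Lipo-BiTE and 1692, 1998 and 1984 in PBS libraries.

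**Figure D4:**
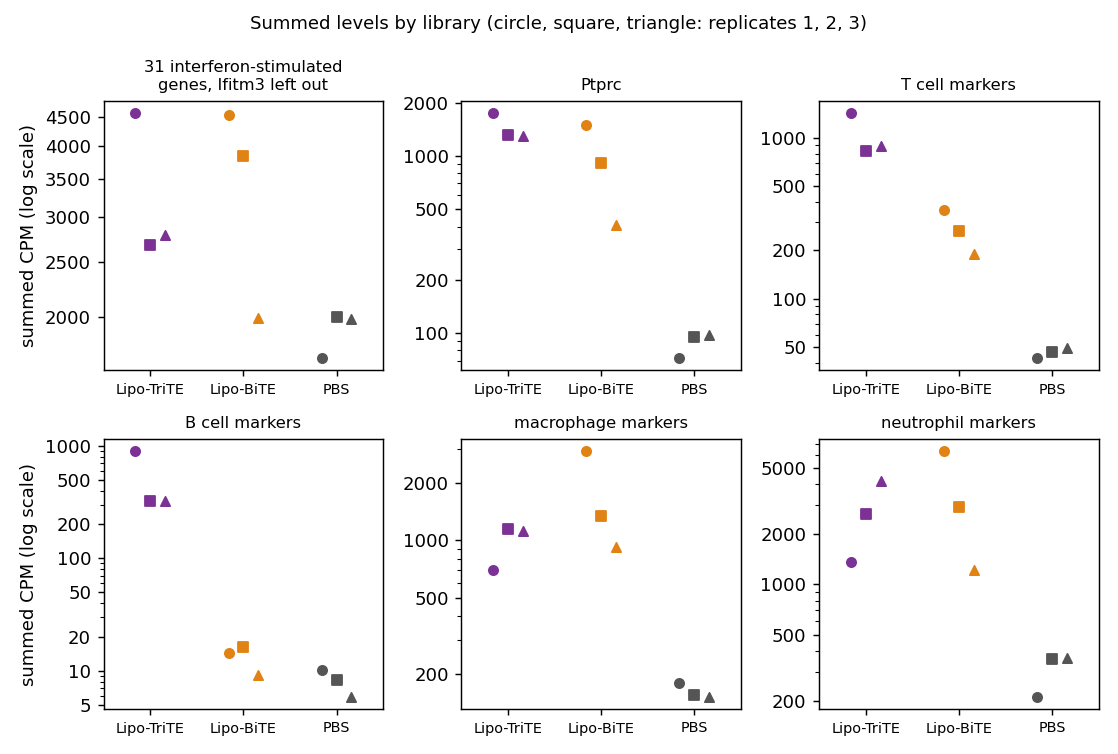
Summed CPM on a log scale in each library (circles, squares and triangles for replicates 1, 2 and 3) of 31 interferon-stimulated genes without Ifitm3, of Ptprc and of marker lists. The interferon-stimulated genes reach 4585 CPM in Lipo-TriTE 1 and 4546 CPM in Lipo-BiTE 1 against at most 1998 CPM in PBS libraries, while B cell markers stand apart in Lipo-TriTE libraries alone.

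Plasmacytoid dendritic cells are known as strong producers of type I interferon. Siglech, a surface lectin of these cells, stood at 108, 64.2 and 87.6 CPM in Lipo-TriTE tumours, 6.71, 6.39 and 8.07 CPM in Lipo-BiTE tumours and 8.83, 4.31 and 4.75 CPM in PBS tumours. It rose 14.6-fold in Lipo-TriTE against PBS (adjusted p = 2.59e-05) and did not pass in Lipo-BiTE tumours (1.19-fold, adjusted p = 0.579). Against Lipo-BiTE it was 12.2-fold higher in Lipo-TriTE tumours (adjusted p = 0.000165). Of the 5 markers listed for these cells, Bst2 included, 3 rose and 1 (Tcf4) fell in Lipo-TriTE against PBS, and 0 rose and 1 fell in Lipo-BiTE against PBS. The other two that rose were the chemokine receptor Ccr9, at 17.0-fold, and Klk1, at 26.4-fold. None of the 32 interferon-stimulated genes passed between the same treatments, which does not show equal levels. A link between these cells and the interferon-stimulated genes was not tested.

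Transcripts of the type I interferons themselves were at the edge of detection. In all, 14 genes of type I interferons had a row, 4 of them at 0 in every library, and their counts summed to 9, 12 and 7 in Lipo-TriTE libraries, 13, 4 and 6 in Lipo-BiTE libraries and 6, 0 and 7 in PBS libraries. No gene of them exceeded 7 counts in a library or passed the filter, so differences in these ligands were not detectable at this depth. Ifng, the type II interferon, rose 6.61-fold in Lipo-TriTE (adjusted p = 0.00052) and 5.28-fold in Lipo-BiTE tumours (adjusted p = 0.00177), with 436, 127 and 224 counts in Lipo-TriTE, 189, 164 and 107 in Lipo-BiTE and 30, 42 and 32 in PBS libraries.

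Of 6 interferon receptor genes 5 rose in both comparisons with PBS. Over all tested genes 18.9% were called higher in Lipo-TriTE and 13.8% in Lipo-BiTE tumours. Ifnlr1, among the 5, was near the floor in PBS libraries, at 0, 0 and 5 counts. Ifnar2 rose 1.74-fold in Lipo-TriTE (adjusted p = 0.0188) and 1.79-fold in Lipo-BiTE tumours (adjusted p = 0.0266), whereas Ifnar1 did not pass at 1.22-fold in Lipo-TriTE (adjusted p = 0.197) and 1.28-fold in Lipo-BiTE tumours (adjusted p = 0.148). All 5 signalling genes described here rose in Lipo-TriTE and 3 of 5 in Lipo-BiTE tumours, namely Jak2, Stat2 and Tyk2. Stat2 rose 2.04-fold in Lipo-TriTE and 2.11-fold in Lipo-BiTE tumours, and Irf9 rose 1.63-fold in Lipo-TriTE tumours and did not pass in Lipo-BiTE tumours at 1.33-fold.

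Of 16 measured sensors, adaptors and factors upstream of interferon, 9 rose and 1, Mavs, the mitochondrial adaptor of RIG-I, fell in Lipo-TriTE tumours, and 9 rose and 0 fell in Lipo-BiTE tumours. Beside this list and the 2 below, 18.9% of all tested genes were called higher and 14.8% lower in Lipo-TriTE tumours. In Lipo-BiTE tumours 13.8% were called higher and 3.22% lower. Irf7, the factor that drives interferon transcription and is itself interferon-induced, rose 3.74-fold in Lipo-TriTE (adjusted p = 0.0147) and 3.45-fold in Lipo-BiTE tumours (adjusted p = 0.0334). The endosomal sensor of single-stranded RNA Tlr7, the chaperone Unc93b1 and the kinase Ikbke rose 11.3-fold, 11.6-fold and 5.43-fold in Lipo-TriTE and 7.29-fold, 11.6-fold and 4.40-fold in Lipo-BiTE tumours. Irf8, a factor of myeloid and B cells, was 1.78-fold higher in Lipo-TriTE than in Lipo-BiTE tumours (adjusted p = 0.0341) and Ticam1, the adaptor of Tlr3, was lower there (log2 −0.69 ± 0.14, adjusted p = 0.0144). Of 7 genes that restrain the response 4 rose in both comparisons, among them the phosphatase Ptpn6, at 9.13-fold in Lipo-TriTE and 8.32-fold in Lipo-BiTE tumours, and the kinase inhibitor Socs3, at 3.90-fold in Lipo-TriTE and 7.31-fold in Lipo-BiTE tumours. Of 26 further interferon-stimulated genes 12 rose in Lipo-TriTE and 8 in Lipo-BiTE tumours and 0 fell, with Ifit1bl1 at 16.6-fold in Lipo-TriTE and 7.76-fold in Lipo-BiTE tumours. Slfn5 was at 9.03-fold in Lipo-TriTE and 7.78-fold in Lipo-BiTE tumours, and Ifi27l2a at 8.48-fold in Lipo-TriTE and 6.41-fold in Lipo-BiTE tumours.

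Levels per kilobase of the deposited gene length put Ifitm3 first at 709.6 CPM per kb in Lipo-TriTE, 946 in Lipo-BiTE and 885 in PBS tumours. Bst2 followed at 210.3 CPM per kb in Lipo-TriTE, 156 in Lipo-BiTE and 139.9 in PBS tumours, and Isg15 at 132 in Lipo-TriTE, 125 in Lipo-BiTE and 63.2 in PBS tumours. Mx1, for all its change, ranked 26 of 32 over all libraries, with 21.2 CPM per kb in Lipo-TriTE, 20.8 in Lipo-BiTE and 2.60 in PBS tumours. Ifi44, Herc6 and Mx2 had the lowest levels over all libraries. Mx2, the lowest, had 3.83 CPM per kb in Lipo-TriTE, 2.80 in Lipo-BiTE and 1.07 in PBS tumours. The SDs of CPM within treated groups ran from 6.08% to 79.7% of the mean in Lipo-TriTE and from 7.43% to 63.5% in Lipo-BiTE tumours.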

How the data were processed

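RNA-seq libraries were made from fragmented mRNA with random primers, per the labels' protocols. The authors deposited 1 table of raw read counts per gene, whole numbers with no normalization, over C57BL/6NJ gene models. No label or header names the aligner or the counting tool, or says whether counting used strand. The table names 3 columns as untreated, and these were taken as PBS, the only group left, which is an inference. Unnamed loci numbered 3710 and held 1.17% to 2.14% of the counts per library. Of 52 repeated names the entry with most counts kept the name. PCR reads carry no molecular identifiers, so the floor of 3 counts covers counting error only.

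The tests used edgeR 4.0.16 under R 4.3.3. Its function filterByExpr with a minimum count of 10 kept 16596 genes, libraries were scaled by TMM, and the robust quasi-likelihood F test was fitted over all 9 libraries with 1 mean per group, no covariate and 6 residual degrees of freedom. Calls needed a Benjamini-Hochberg adjusted p under 0.05 over all tested genes. The SE of a log2 fold change comes from that value and the F statistic. CPM uses TMM-scaled totals, and SDs are over the 3 libraries of a group. The procedure was run on counts simulated with the same spread for every gene and no outlying library. That run checked the code and cannot speak for calls that move with single libraries here. Alternatives were DESeq2 1.42.0, no TMM, no filter, at least 1 CPM in 3 libraries, only the 6 libraries compared, a replicate block and leaving out each library.

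The genes, lists and tests were chosen with earlier results of these data known. Values in every library are given for the 3 called genes with the largest change in each comparison, the gene of each role with the highest mean CPM and any gene called lower. Up to 4 genes of each pathway list were named by smallest p in Lipo-TriTE against PBS, with Ifnar1, Ifnar2, Stat2, Irf9 and Irf7 whatever their result. 1 gene of the signalling list is not reported here. Other genes named with full values were chosen after their values were seen.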

Additional observations from a re-analysis of the deposited data

How the results depend on the processing

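Calls rest on 3 libraries a group and moved with single libraries. The number of the 32 genes called ran from 11 to 16 in Lipo-TriTE against PBS, from 4 to 23 in Lipo-BiTE against PBS and from 0 to 2 in Lipo-TriTE against Lipo-BiTE when each library was left out in turn, where 16, 15 and 0 were called with all libraries. The 2 in the last comparison, without Lipo-BiTE 3, were Rsad2 and Oasl2, both lower in Lipo-TriTE tumours. The share of all tested genes called moved with the libraries too. In the same order it ran from 22.2% to 29.1%, 8.59% to 20.2% and 2.43% to 10.8%, beside 33.6%, 17% and 10.1% with all libraries. In Lipo-TriTE against Lipo-BiTE DESeq2 and the fit without a filter called 1 gene each, where 12.5% and 8.93% of all tested genes were called. DESeq2 called 18 genes in each comparison with PBS, and the fit without a filter 20 in Lipo-TriTE and 16 in Lipo-BiTE against PBS. Of all tested genes DESeq2 called 27.3% in Lipo-TriTE and 17.2% in Lipo-BiTE against PBS, and the fit without a filter 17.6% and 10.5%. Scaling by total counts moved the median log2 fold change of all genes to 0.11 in Lipo-TriTE against Lipo-BiTE and −0.16 in Lipo-BiTE against PBS, and DESeq2 moved it to 0.17 in Lipo-TriTE against PBS. Summing the counts of Rsad2 with the unnamed locus described as the same protein, added after seeing the data, kept its call in Lipo-BiTE against PBS (adjusted p = 0.0201) and its place outside the threshold between the treatments (adjusted p = 0.0833). The ratio to the geometric mean of T cell and macrophage markers, in place of Ptprc, had a median fold of 0.149 in Lipo-TriTE against PBS. That fold was 0.649 in Lipo-TriTE against Lipo-BiTE, with 10 of 32 ratios lower in all Lipo-TriTE than in all Lipo-BiTE libraries. These markers rose against PBS as well, so unchanged genes would also have lower ratios to them. The labels do not say whether replicate numbers pair libraries. Correlations of same-numbered deviations ran from −0.194 to 0.0755, and with 3 libraries a group they cannot settle this. With a replicate block 15 genes were called in Lipo-TriTE against PBS, 12 in Lipo-BiTE against PBS and 0 between the treatments. In the same order 29.6%, 13.1% and 7.55% of all tested genes were called.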

Other observations

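Genes known mainly as targets of interferon gamma moved beside the type I list. Of 12 measured, 9 rose and 0 fell in Lipo-TriTE against PBS, where 18.9% of all tested genes were called higher, and 8 rose and 0 fell in Lipo-BiTE against PBS, where 13.8% were. Ciita, the master factor of MHC class II genes, rose 18.0-fold in Lipo-TriTE and 9.36-fold in Lipo-BiTE tumours. The guanylate-binding proteins Gbp4 and Gbp5 rose 7.10-fold and 6.04-fold in Lipo-TriTE and 4.77-fold and 7.58-fold in Lipo-BiTE tumours. Cxcl10, a chemokine induced by both interferon types and chosen after its values were seen, stood at 32.6, 27.2 and 32.9 CPM in Lipo-TriTE tumours, 84.3, 91.0 and 41.6 CPM in Lipo-BiTE tumours and 21.9, 12.9 and 16.2 CPM in PBS tumours. All Lipo-TriTE libraries lay below all Lipo-BiTE libraries and above all PBS libraries. Cxcl10 rose 1.82-fold in Lipo-TriTE (adjusted p = 0.0382) and 4.26-fold in Lipo-BiTE tumours (adjusted p = 0.00101) against PBS. It was the only gene of this list called between the treatments, lower in Lipo-TriTE by log2 −1.23 ± 0.28 (adjusted p = 0.0238, edgeR quasi-likelihood test).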
